A study of Mus musculus with 4 samples.

Results

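Glutathione transferases are detoxifying enzymes, and the 10 described here are Gsto1, Gsta3, Gsta4, Gstm1, Gstm2, Gstp1, Gstt1, Mgst1, Mgst2 and Mgst3, 10 of the 32285 genes in the tables. They were chosen by name, with earlier results of these data known. They are soluble transferases of the omega, alpha, mu, pi and theta classes and 3 microsomal transferases, and all 10 were found in each of the 4 tables. Lung cryosections described as upper pulmonary branches were profiled with Visium, in which each barcoded spot of a slide captures polyadenylated RNA from a small area that can hold several cells of different types. The 4 sections came from 1 male and 1 female C57BL/6J mouse kept without vaping (Non-Vaped, NV) and 1 male and 1 female exposed as young adults in a whole body chamber to the vapor of a peach-flavored vape juice with a menthol cooling agent from JUUL pens, over 9 weeks with 5 exposure days a week of 4 h each (Vaped, V). The labels name no transgene, the paper states no nicotine content of the juice, and each group was 2 mice.

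The soluble transferases join the tripeptide glutathione to electrophiles such as aldehydes, quinones and epoxides, which makes these compounds less reactive and easier to export. The microsomal transferases sit in membranes, where they also act on lipid hydroperoxides or on leukotriene A4. In mouse lung this chemistry is best known from club cells, the secretory cells of the bronchioles, which carry much of the lung's capacity to metabolise inhaled compounds, and many of these genes are targets of NRF2, a factor that binds antioxidant response elements.

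The promoters of Gsto1 and Gsta3 are shown because these genes had the highest log2 fold changes of V against NV among the 10. Each line holds the 250 bases before the RefSeq start site in GRCm38.p6 (RefSeq sequence), 5′ to 3′ on the plus strand, at chr19:47854723-47854972 for Gsto1 and at chr1:21240335-21240584 for Gsta3. Capitals mark the core of the antioxidant response element, TGACNNNGC, searched on both strands.
Gsto1: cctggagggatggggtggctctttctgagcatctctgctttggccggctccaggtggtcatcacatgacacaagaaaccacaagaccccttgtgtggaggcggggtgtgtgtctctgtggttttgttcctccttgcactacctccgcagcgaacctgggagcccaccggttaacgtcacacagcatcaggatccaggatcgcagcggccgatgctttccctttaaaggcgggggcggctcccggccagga
Gsta3: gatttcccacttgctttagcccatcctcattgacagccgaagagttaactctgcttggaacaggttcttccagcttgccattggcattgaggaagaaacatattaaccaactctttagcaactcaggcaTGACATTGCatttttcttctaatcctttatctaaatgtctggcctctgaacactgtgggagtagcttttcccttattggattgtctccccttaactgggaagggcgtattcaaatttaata
The Gsta3 window held 1 match, 121 bases before the start, and the Gsto1 window held none. A promoter was listed for 9 of the 10 genes, in 11 windows, and the only other match lay on the minus strand of 1 of the 2 Mgst1 windows, 56 bases before the start. The same core was found in 10.2% of 32851 mouse promoters of this length. The core of the xenobiotic response element, TNGCGTG, was in none of the 11 windows and in 4.1% of all promoters.

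The sections held 473 to 2053 spots and 6957392 to 34308556 UMIs, counts of unique molecules. They did not hold the same tissue. Club cell markers (6 genes, among them the secretoglobin Scgb1a1) stood at 12953 and 2351 CPM (UMIs per 1000000 UMIs of the section or spot class) in the male and female NV mice and 312 and 13787 in the male and female V mice. The V male section had 1 spot outside the lung parenchyma, against 158 and 125 in the male and female NV sections and 433 in the female V section, and it held little of the cardiac muscle and brown adipose tissue found near the hilum of the other 3. The levels over whole sections are therefore followed by levels within spot classes, and the share of each tissue and the vaping of the mice cannot be told apart over whole sections. In sums over spots, fewer cells of a type and less RNA per cell also cannot be told apart.

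Over whole sections, Gsto1, Gsta3 and Gstm1 were at higher levels in each V than in each NV section, and Gstm2 and Gstt1 at lower levels. Among 16292 genes with at least 20 UMIs, 12.8% lay above and 14.2% lay below in the same way, so that 3 and 2 of 10 genes are read against these shares. Levels are not compared between genes.

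Gsto1 encodes the omega class transferase, which reduces dehydroascorbate and methylated arsenicals. It was at 64.6 and 67.8 CPM in the male and female NV mice and 97.9 and 339.9 in the male and female V mice. The V sections differed from each other more than the lower of them differed from the NV sections. Gsta3 encodes an alpha class enzyme known in mice for conjugating the epoxide of aflatoxin B1, and it stood at 132 and 129.9 in the male and female NV mice and 377 and 162 in the male and female V mice. Here the V male was the section that stood apart. Gstm1, a mu class enzyme of broad substrate range, was at 382 and 383 in the male and female NV mice and 564 and 404 in the male and female V mice, with the V male again highest.

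Gsta4 (chromosome 9, 78182774 to 78209349, GRCm38), the alpha class enzyme that conjugates the lipid peroxidation product 4-hydroxynonenal, was at 50.0 and 46.6 CPM in the male and female NV mice and 28.8 and 85.9 in the male and female V mice. The V sections lay on both sides of the NV sections. Gstm2, the second mu class gene, ranged from 170.1 to 172 in NV and from 143 to 165 in V, and Gstt1, a theta class gene that acts on small halogenated compounds, ranged from 137 to 150.3 in NV and from 128 to 135 in V. Gstp1, the pi class gene, ranged from 34.5 to 59.2 in NV and from 41.9 to 55.8 in V, so that its groups overlapped. Of the 90-base windows in the last 600 bases of its transcript, 70.3% were also found in Gstp2 or a pseudogene, which leaves the Gstp1 level uncertain, whereas the same share was 4.31% for Gstm1 and 0 for the other 8 genes.

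The 3 microsomal genes and Gstp1 were higher in both females than in both males. Mgst1 (chromosome 6, 138140316 to 138156755), which encodes a membrane-bound transferase with peroxidase activity, was at 267 and 551 CPM in the male and female NV mice and 267 and 553 in the male and female V mice. Within each sex the V and NV levels were nearly equal, with log2 ratios of 0.00074 in males and 0.0050 in females. Mgst2, which can form leukotriene C4, was at 6.50 and 21.3 in the male and female NV mice and 5.47 and 19.2 in the male and female V mice, from 61, 148, 65 and 660 UMIs. Mgst3 (chromosome 1, 167371966 to 167393841), a related enzyme with peroxidase activity, was at 61.5 and 99.2 in the male and female NV mice and 36.4 and 76.5 in the male and female V mice. These are 4 of 10 genes, beside 18.2% of all 16292 genes in which both females lay above both males. Brown adipose markers stood at 540 and 1334 CPM in the male and female NV sections and at 65.4 and 1969 CPM in the male and female V sections, and their part in these levels was not tested. With 1 mouse of each sex per group, sex was not tested either.

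**Figure D1:**
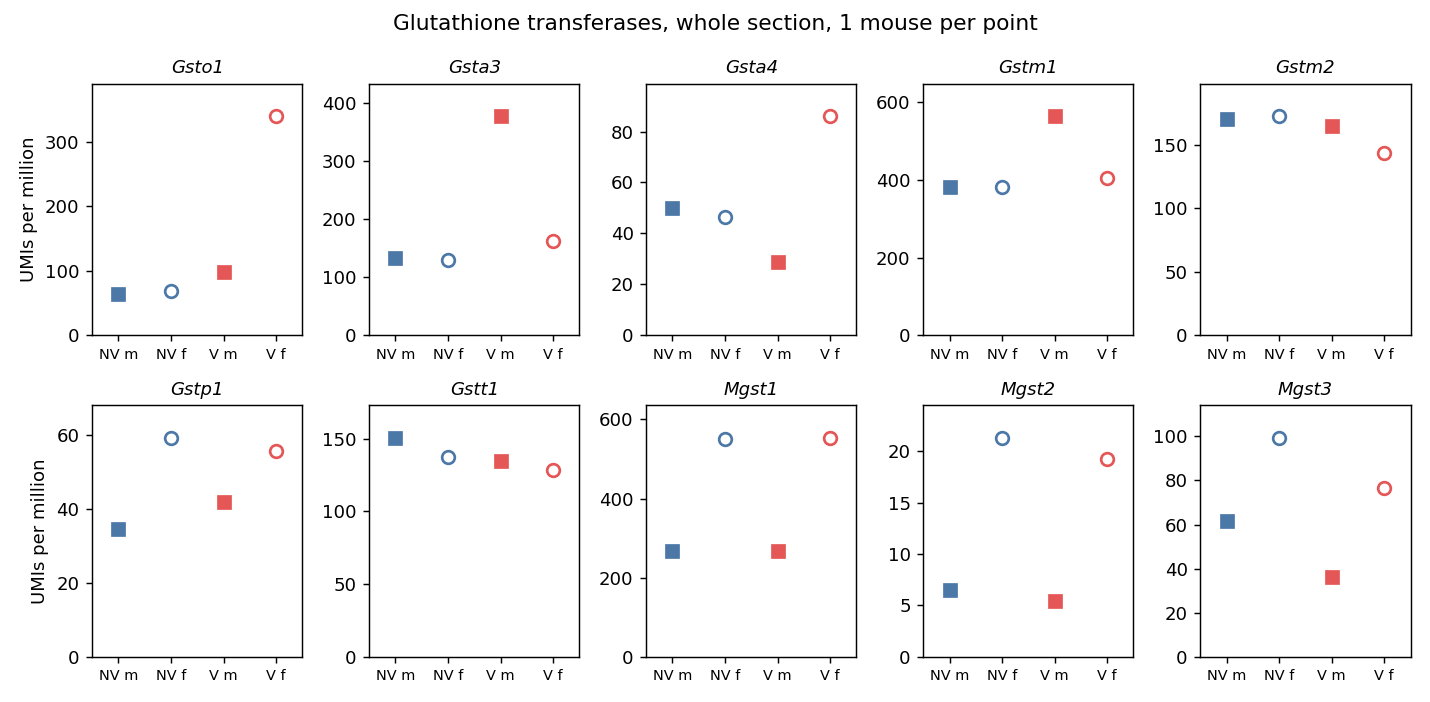
Levels of the 10 genes in CPM of the whole section, on axes that start at 0, with 1 point per mouse (blue for NV, red for V, squares for males, open circles for females). Gsto1 is highest in the V female at 339.9, Gsta3 in the V male at 377, and the female points of Mgst1, at 551 and 553, lie above the male points at 267.

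No gene was called between V and NV over whole sections when UMI sums per section were compared with edgeR's quasi-likelihood test, where a call needed a log2 fold change beyond 0.25 in either direction and a p under 0.05 after Benjamini-Hochberg adjustment. The called share was 0.0% of 14570 genes, 248 genes had an unadjusted p under 0.05, DESeq2 called 7 genes and limma 0, and none of the called genes was a glutathione transferase. The log2 fold change was 1.77 ± 0.72 (SE) for Gsto1, 0.97 ± 0.39 for Gsta3, 0.30 ± 0.23 for Gstm1 and -0.49 ± 0.53 for Mgst3, each with an adjusted p of 0.9997. The 10 genes had a median log2 fold change of 0.04, beside 0.03 over all genes tested. Without the V male, Gsto1 was at a log2 fold change of 2.43. Without the V female, Gsta3 was at 1.38 while Gsto1 was at 0.42. Each of these fits rests on 1 V mouse, so only the size of the change is given. With 2 mice in each group, the smallest two-sided p of an exact permutation test is 0.33.

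The same question was then put to spots with the least airway tissue. Alveolar spots were the parenchyma spots of at least 1000 UMIs among the 50% of those spots in their section with the lowest share of club markers, 334 and 168 spots in the male and female NV mice and 778 and 788 in the male and female V mice. They were set by rank within each section and so do not hold club markers at 1 common level, since the V female had no spot under 500 CPM of club markers and the V male had 1226. In these spots Gsto1 was at 61.7 and 66.0 CPM in the male and female NV mice and 97.1 and 190.1 in the male and female V mice. The V levels were above both NV levels in each sex, by 1.57-fold in males and 2.88-fold in females. Gsta3 was at 142 and 162 in the male and female NV mice and 387 and 168 in the male and female V mice, and Gstm1 was at 401, 365, 565 and 424 in the same order. For both genes the V female lay close above the higher NV section, and the V male lay well above. These 3 genes were again the ones at higher levels in each V than in each NV section, as were 14.3% of 14368 genes in alveolar spots. Gstt1, at 166 and 160.2 in the male and female NV mice and 133 and 153 in the male and female V mice, was the gene at lower levels in each V section, as were 17.3%. Gstm2, which was lower in V over whole sections, was at 159 and 168 in the male and female NV mice and 163 and 144 in the male and female V mice, so that its groups overlapped here. Mgst2 was at 6.79 and 13.7 in the male and female NV mice and 5.24 and 10.9 in the male and female V mice, also with overlap.

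By edgeR's test 0.0% of 13233 genes were called in alveolar spots, with 382 genes at an unadjusted p under 0.05, 6 called by DESeq2 and 0 by limma. Gsto1 had a log2 fold change of 1.198 ± 0.355 (SE, unadjusted p = 0.017 and adjusted p = 0.999 with edgeR). Gsta3 was at 0.87 ± 0.38 and Gstm1 at 0.38 ± 0.21. With 1 V mouse left in the fit, Gsto1 was at 1.62 without the V male and at 0.60 without the V female. Gsta3 was at 0.20 and 1.34 in the same order. Over all parenchyma spots, edgeR called 0.0% of 14348 genes, with 380 at an unadjusted p under 0.05, 9 called by DESeq2 and 0 by limma.

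Club-rich spots were the 10% of spots of at least 1000 UMIs in each section with the highest share of club markers, and they held 71230 and 26584 CPM of club markers in the male and female NV mice and 1032 and 55938 in the male and female V mice. The V male spots are thus club-rich by rank only. Gsto1 was at 121 and 106 CPM in the club-rich spots of the male and female NV mice and 90.6 and 1184 CPM in those of the male and female V mice, from 105, 37, 86 and 5943 UMIs. The V female stood 11.2-fold above the NV female and the V male at 0.75 times the level of the NV male. Gsta4 showed the same order in these spots, at 87.4 and 62.96 in the male and female NV mice and 29.5 and 186 in the male and female V mice. Gsta3 was at 179 and 169 in the male and female NV mice and 336 and 289 in the male and female V mice, with no overlap between the groups.

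Gsta3, Gstm1 and Gstp1 had no overlap in club-rich spots with V above NV, as did 13.1% of 13200 genes. Gstp1 was at 31.1 and 28.6 in the male and female NV mice and 40.02 and 46.4 in the male and female V mice. These levels came from only 27, 10, 38 and 233 UMIs in the same order. Gstm2, Gstt1 and Mgst2 overlapped between the groups in these spots. The test called 0.0% of 10128 genes between V and NV in club-rich spots, with 166 at an unadjusted p under 0.05 and none called by DESeq2 (52 at an unadjusted p under 0.05) or limma (182). Gsto1 had a log2 fold change of 2.59 ± 1.17 (SE) and Gsta3 of 0.85 ± 0.27, at an adjusted p of 0.9996 with edgeR. Without the V female, Gsto1 had a negative log2 fold change of -0.43, and without the V male it was at 3.47, each from a fit with 1 V mouse.

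**Figure D2:**
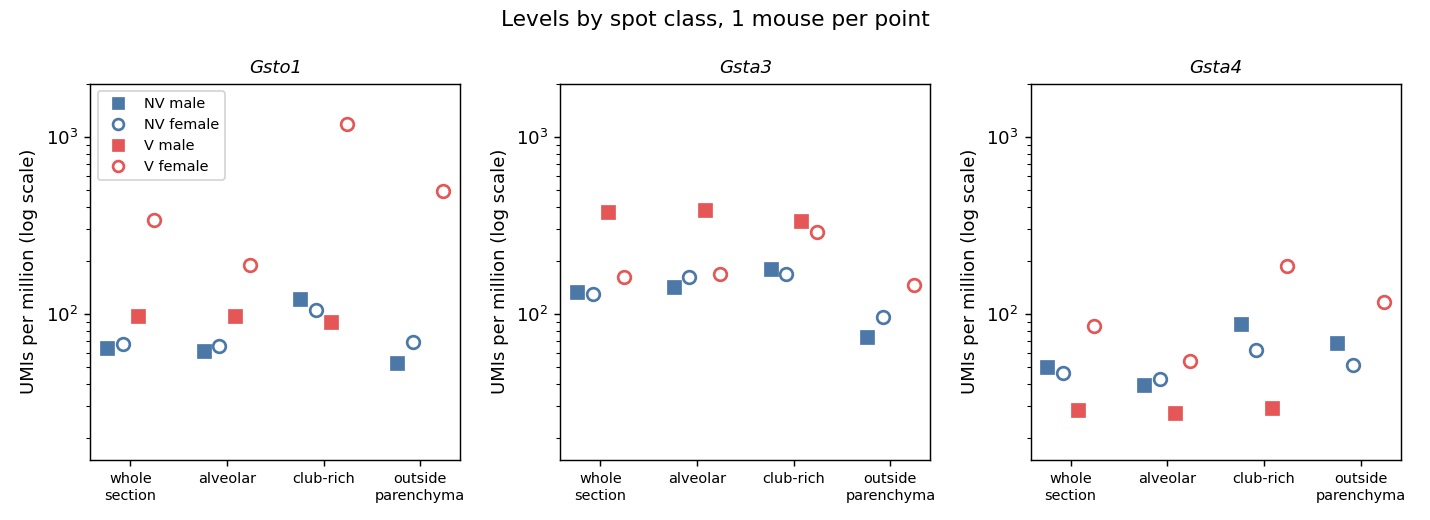
Levels of Gsto1, Gsta3 and Gsta4 in CPM on a log scale, over the whole section and in alveolar, club-rich and other-than-parenchyma spots, with 1 point per mouse (blue for NV, red for V, squares for males, open circles for females). The V female point of Gsto1 reaches 1184 in club-rich spots, and the V male has no point outside the parenchyma, where it had 1 spot.

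Spots within the same broad range of club marker share were also set side by side. In spots with 2000 to 10000 CPM of club markers, Gsto1 was at 56.8 CPM in 620 spots of the NV male, 62.1 in 48 spots of the NV female and 187 in 1672 spots of the V female. In spots over 10000, it was at 95.1 in 189 spots of the NV male and 968 in 334 spots of the V female. The V male had too few spots in either range. In spots with 500 to 2000, Gsto1 was at 67.4 in 388 spots of the NV female and 96.0 in 325 spots of the V male. There Gsta3 was at 129.5 and 353 and Gsta4 at 45.1 and 29.3 in the same order. In the 1226 spots of the V male under 500, Gsto1 was at 98.0, and the NV sections had too few spots in that range. In the range of 2000 to 10000, Gsta4 was at 47.4 and 43.2 in the male and female NV mice and 68.0 in the female V mouse, and Gsta3 at 122, 146 and 137 in the same order. The club marker share can still differ between sections within a range this wide, and its part in these levels was not tested. Outside the parenchyma, Gsto1 was at 52.9 and 69.6 in the male and female NV mice and 493.7 in the female V mouse.

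Within sections, Gsta4 was the transferase called with club markers. Its level in club-rich against other spots was 87.4 against 46.2 CPM in the male NV mouse, 62.96 against 45.7 in the female NV mouse, and 29.5 against 28.6 and 186 against 68.8 in the male and female V mice. It was higher in the club-rich spots of all 4 sections, though by only 1.03-fold in the V male. With the section as a block, edgeR gave a log2 fold change of 0.92 ± 0.18 (SE, adjusted p = 0.011), and this call was lost with DESeq2 (adjusted p = 0.096), in parenchyma spots alone (0.54, edgeR adjusted p = 0.059), with the highest 20% of spots (0.56, edgeR adjusted p = 0.23), without the NV male (edgeR adjusted p = 0.094) and without the V female (0.55, edgeR adjusted p = 0.155). Called higher were 1.21% of 13541 genes and called lower 0.635%.

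Gsto1 was at 121 against 58.8 CPM in club-rich against other spots of the male NV mouse, 106 against 65.9 in the female NV mouse, and 90.6 against 98.6 and 1184 against 195 in the male and female V mice. It was thus higher in the 3 sections whose club-rich spots held 26584 CPM of club markers or more. Its log2 fold change was 1.195 ± 0.314 (SE) with an adjusted p of 0.078 from edgeR, and it fell to 0.48 without the V female (adjusted p = 0.18 with edgeR). Gsto1 was called without the V male at 1.60, with the highest 5% of spots at 1.56, without secretoglobins among the markers at 1.36, in parenchyma spots alone at 0.57, and with no filter on low counts. Gsta3 followed the same order, with log2 ratios of 0.49 and 0.40 in the male and female NV mice and -0.18 and 1.04 in the male and female V mice. Its fitted log2 fold change of 0.44 ± 0.16 had an adjusted p of 0.25 with edgeR. It was at 0.17 without the V female (adjusted p = 0.82 with edgeR) and at 0.12 in parenchyma spots alone (adjusted p = 0.91 with edgeR), and it was called at 0.67 without the V male, at 0.698 with the highest 5% of spots and at 0.39 with no filter. Mgst2 was at 0.73 ± 0.21 (adjusted p = 0.13 with edgeR) and was called with the highest 5% of spots at 1.05. The club-rich spots held only 9 and 7 UMIs of Mgst2 in the male and female NV mice and 9 and 163 in the male and female V mice. Mgst3 was at -0.41 ± 0.14 (adjusted p = 0.19 with edgeR), turned to 0.18 in parenchyma spots alone, and was called with no filter at -0.47. Gstp1 and Mgst3 were lower in the club-rich spots of all 4 sections, as were 8.83% of 16284 genes, and Gsta4 was higher in all 4, as were 6.11%. The 10 genes had a median log2 fold change of 0.21 in club-rich spots, beside 0.0011 over all genes tested. From 10.9% to 28.4% of club-rich spots were also among the 10% richest in markers of ciliated cells, and in ciliated-rich spots Gsto1 and Gstm1 were higher in all 4 sections, as were 9.42% of 16282 genes, while Gstp1, Gstt1 and Mgst3 were lower in all 4, as were 8.6%.

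In spots rich in alveolar type 2 (AT2) cells, which make surfactant, Mgst3 was the called transferase. AT2 markers stood at 5976 to 6889 CPM in these spots and at 2080 to 3499 CPM in the others. Mgst3 was at 47.9 against 63.3 CPM in AT2-rich against other spots of the male NV mouse, 51.9 against 103.9 in the female NV mouse, and 34.7 against 36.6 and 59.5 against 77.8 in the male and female V mice. Mgst3 was lower in all 4 sections, least in the V male. Gstm2 and Gstp1 were also lower in the AT2-rich spots of all 4, as were 9.27% of 16284 genes. The Mgst3 log2 fold change of -0.55 ± 0.13 (SE, adjusted p = 0.020 with edgeR) stood among 5.69% of 12929 genes called lower and 1.62% called higher. In parenchyma spots alone the log2 fold change was -0.0029 and the call was lost, as it was with DESeq2 (adjusted p = 0.14), with the highest 5% of spots (-0.39, edgeR adjusted p = 0.23), without the NV male (edgeR adjusted p = 0.063), without the NV female (edgeR adjusted p = 0.11) and without the V female (edgeR adjusted p = 0.16). Mgst2 was at -0.83 ± 0.25, with an adjusted p of 0.056 from edgeR, and was called without the NV male (-0.99, adjusted p = 0.041), without the V male (-0.93, adjusted p = 0.013), with the highest 5% of spots (-1.24) and with no filter (-0.86). Mgst2 had only 61 to 660 UMIs in a whole section, and fewer in these spots. The 10 genes had a median log2 fold change of -0.24 in AT2-rich spots, beside -0.0052 over all genes.

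In spots rich in alveolar type 1 (AT1) cells, the thin cells of gas exchange, Gsta4 and Mgst1 were called lower. AT1 markers stood at 5518 to 8305 CPM in these spots and at 1865 to 5061 CPM in the others. Gsta4 was at 47.6 against 50.3 CPM in AT1-rich against other spots of the male NV mouse, 35.8 against 47.5 in the female NV mouse, and 17.6 against 29.9 and 46.6 against 88.3 in the male and female V mice. The log2 fold change of Gsta4 was -0.75 ± 0.15 (SE, adjusted p = 0.0037 with edgeR). Mgst1 was at 243 against 270.4 in the male NV mouse, 283 against 572 in the female NV mouse, and 221 against 272 and 309 against 568 in the male and female V mice, and it had a log2 fold change of -0.72 ± 0.14 (adjusted p = 0.0034 with edgeR). Both genes were lower in the AT1-rich spots of all 4 sections, and for Mgst1 the difference was greater in the females. Gstp1 was also lower in all 4, as were 9.38% of 16284 genes, and Gstm1 was higher in all 4, as were 16.6%. Of 12856 genes, 6.78% were called lower and 2.95% higher. In parenchyma spots alone Gsta4 was at -0.30 (adjusted p = 0.23 with edgeR) and Mgst1 at -0.23 (adjusted p = 0.0059, under the fold threshold), and without the V female both calls were lost, at -0.49 and -0.60. Mgst3 was at -0.46 ± 0.14 (adjusted p = 0.059 with edgeR), turned to 0.15 in parenchyma spots alone, and was called at -0.64 without the V male and at -0.48 both with no filter and with spots of at least 3000 UMIs. The 10 genes had a median log2 fold change of -0.23 in AT1-rich spots, beside -0.01 over all genes.

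Scaling to total UMIs alone, in place of TMM scaling, moved the median log2 fold change of all genes from -0.01 to 0.12 in AT1-rich spots and raised the higher share of called genes from 30.3% to 56.1%. The share moved from 22.2% to 35.2% in AT2-rich spots and from 65.6% to 79.4% in club-rich spots. Under that scaling Gsta4 and Mgst1 stayed called lower in AT1-rich spots, at -0.59 and -0.58, Mgst3 stayed called lower in AT2-rich spots at -0.44, and Gsta4 stayed called higher in club-rich spots at 0.98.

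**Figure D3:**
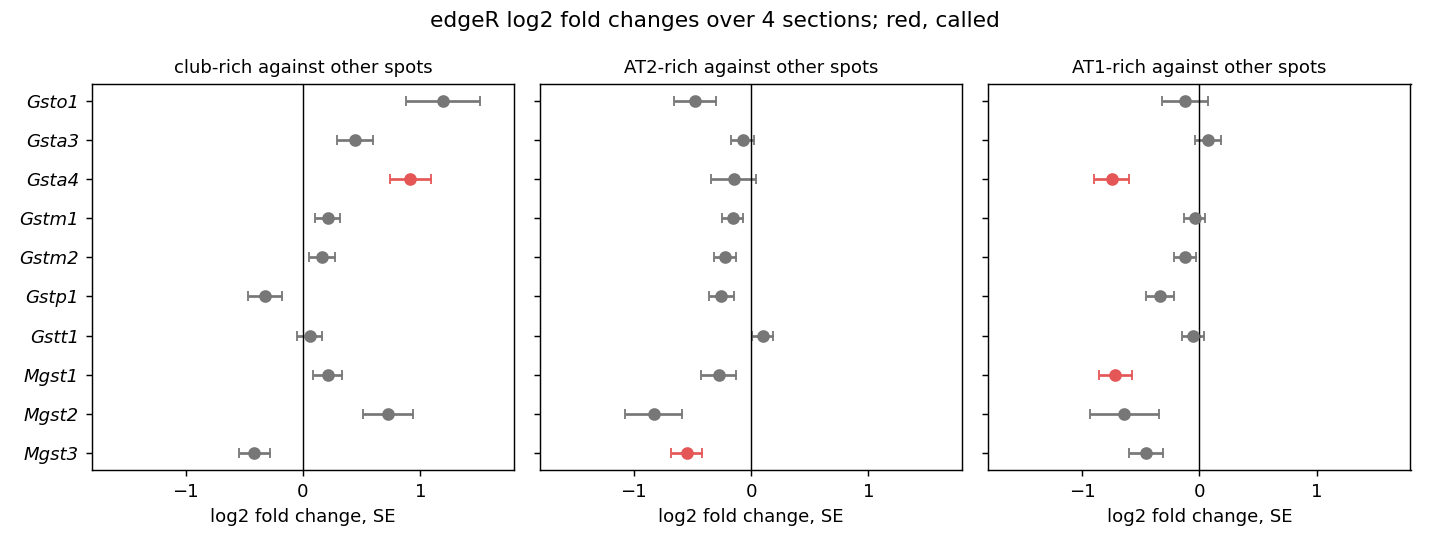
Fitted log2 fold changes of the 10 genes (points, with bars of 1 SE) in club-rich, AT2-rich and AT1-rich spots against the other spots of the same section, over 4 sections, with called genes in red. Gsta4 is called higher in club-rich spots at 0.92 and lower in AT1-rich spots at -0.75, Mgst3 is called lower in AT2-rich spots at -0.55, and Mgst1 lower in AT1-rich spots at -0.72.

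The microsomal genes were also followed into tissue outside the alveoli. In brown adipose-rich spots, ranked by 7 markers such as Cidec and Elovl3, Mgst1 was at 291 against 264 CPM in the male NV mouse, 1431 against 329 in the female NV mouse, and 281 against 266 and 1106 against 379.6 in the male and female V mice. It was thus 4.36-fold and 2.91-fold higher in the females, and at most 1.10-fold higher in the males. Brown adipose markers stood at 3343 and 4966 CPM in these spots of the NV and V females, against 1770 in the NV male and 312 in the V male. Outside the parenchyma, Mgst1 was at 285 and 806 in the male and female NV mice and 801 in the female V mouse. In alveolar spots it was at 253 and 309 in the male and female NV mice and 266 and 334 in the male and female V mice, so that the higher level in females was smaller there, with log2 ratios of females to males of 0.29 in NV and 0.33 in V. Gstp1, Mgst1, Mgst2 and Mgst3 were again higher in both females than in both males in alveolar spots, 4 of 10 genes beside 18.3% of 14368.

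Mgst3 was higher in the cardiac muscle-rich spots of 3 sections. In cardiac muscle-rich against other spots it was at 122 against 49.1 CPM in the male NV mouse, 189 against 72.8 in the female NV mouse, and 34.2 against 36.6 and 144.8 against 62.2 in the male and female V mice. Apart from the V male, whose highest-ranked spots held 145 CPM of cardiac markers where the others held 25021 to 40387, Mgst3 was 2.33-fold to 2.59-fold higher in these spots. Gstm2, Gstp1 and Mgst3 were higher in the cardiac muscle-rich spots of those 3 sections, as were 12.2% of 16283 genes. In brown adipose-rich spots Gsta4, Gstp1, Mgst1 and Mgst3 were higher in the 3 sections, as were 9.12%, and Gsta3 and Gstt1 were lower, as were 55.5%. Gsta4 was nearly level in the V female, at 86.5 against 85.8 CPM. These spot ratios have no test. Lower in the cardiac muscle-rich spots of the 3 sections were 6 of the 10 genes, Gsto1, Gsta3, Gstm1, Gstt1, Mgst1 and Mgst2, beside 60.5% of all genes. Gsta3 was at 53.7 against 149 in the NV male, 67.6 against 148 in the NV female and 108 against 173 in the V female.

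**Figure D4:**
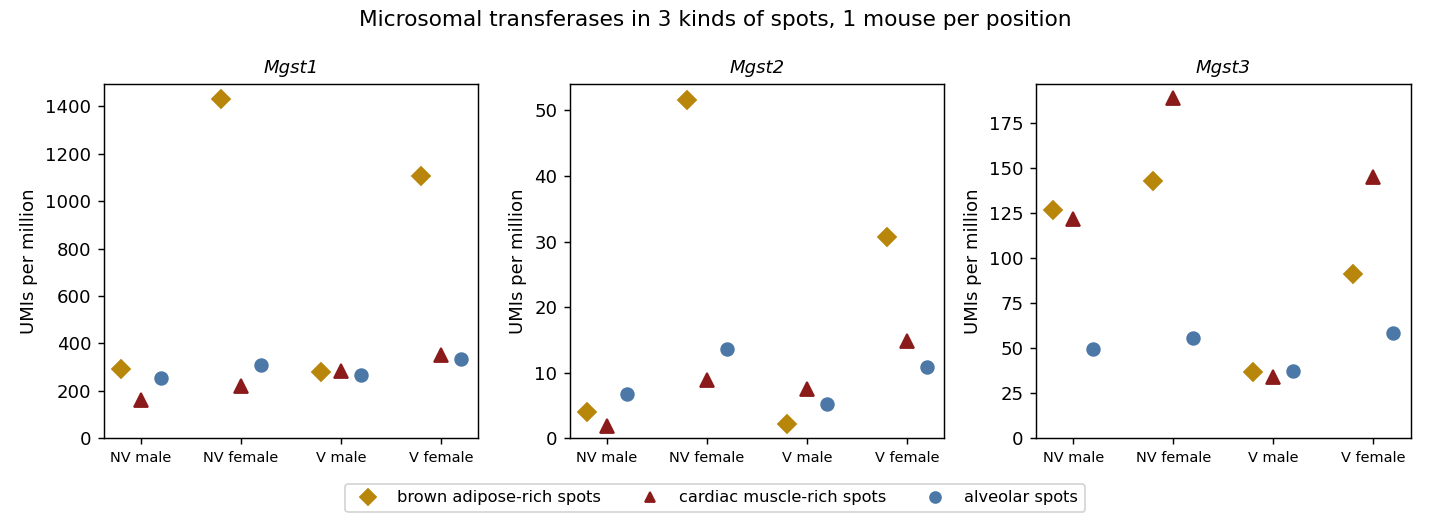
Levels of Mgst1, Mgst2 and Mgst3 in CPM on axes that start at 0, for each mouse in brown adipose-rich spots (diamonds), cardiac muscle-rich spots (triangles) and alveolar spots (circles). Mgst1 reaches 1431 and 1106 in the brown adipose-rich spots of the females, and Mgst3 reaches 189 in the cardiac muscle-rich spots of the NV female, while the V male, whose section held little of either tissue, shows 3 close levels for each of Mgst1 and Mgst3.

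**Figure D5:**
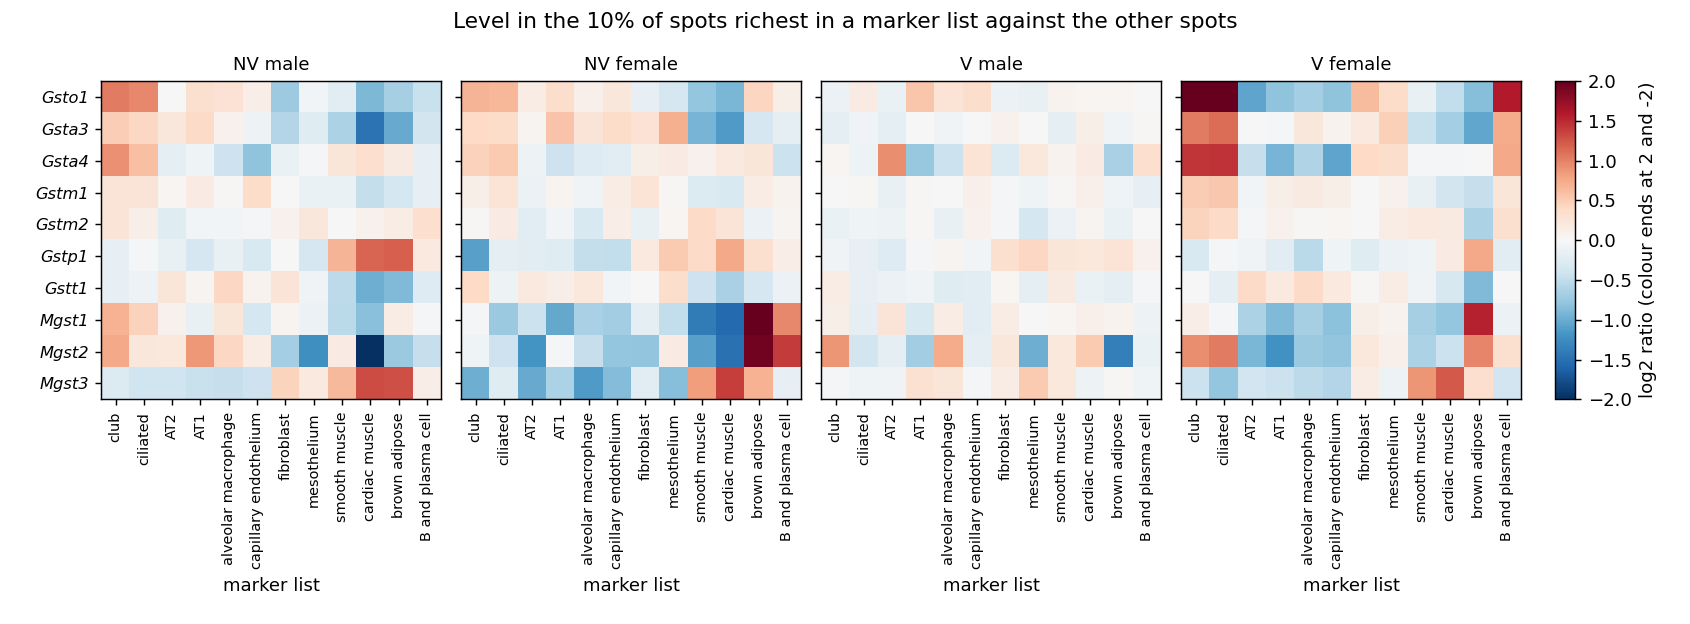
Log2 ratio of the level of each gene in the 10% of spots richest in a marker list to the level in the other spots, for 12 marker lists in each section (red, higher in the rich spots, blue, lower, with colours ending at 2 and -2). Apart from the V male, Gsto1, Gsta3 and Gsta4 are red for club and ciliated markers and Mgst3 is red for cardiac muscle, and the V male panel is pale for most lists.

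Over single spots the genes were sparse and their relations to other genes weak. Mgst2 had a UMI in 3.98% to 21.3% of spots and Gstm1 in 90.3% to 93.2%. Of 40 Spearman correlations of the 10 genes with club markers within the 4 sections, 28 were positive, beside 17 with AT2 markers and 19 with AT1 markers, and with spots thinned to 3000 UMIs the counts were 25, 13 and 19. The club value of Gsto1 was 0.15 and -0.0099 in the male and female NV mice and 0.032 and 0.25 in the male and female V mice. These are descriptions over spots of 1 library, which share depth, and the median over all ranked genes ran over the 4 sections from -0.035 to 0.049 for club, from -0.030 to 0.094 for AT2 and from -0.035 to 0.073 for AT1 markers. The genes most like each transferase were taken as the 3 with the highest mean within-section correlation over the 4 sections, among 8531 genes seen in at least 10% of the spots of each section. Mgst1 was most like Fasn (mean 0.26), Scd1 (0.25) and Slc25a1 (0.22), genes of fatty acid synthesis, desaturation and mitochondrial citrate export. Among the genes most like Mgst3 were Ndufa5 and Ndufb9 (0.20 each), of respiratory complex I. Gsto1 was most like the club cell cytochrome Cyp2f2 (0.15), then Afap1 and Trim41 (0.12 each). Gsta3 was most like Alcam, Inmt and Aldh1a1 (0.14 each), and Gstt1 most like Lyz2 (0.14), Sftpc and Klf2 (0.13 each). Gsta4 had Coq7, Smim8 and Poldip2 (0.15 to 0.16), Gstp1 had Smim8, Acad11 and Sdhd (0.18 each), Gstm1 had Aldh1a1, Klf2 and Gsn (0.097 to 0.10), and Gstm2 had Gpsm1, Dhx40 and Capn1 (0.096 to 0.11), all low values. Mgst2 was under the limit on spots and was not ranked.

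The rest of the glutathione pathway was followed by 5 lists, and none of their genes was called between V and NV. Over whole sections the other glutathione transferases (16 of 20 tested) ran from 0.86 for Gstp3 to -0.96 for Gstm6 on the log2 scale, with 4 above 0 and a median of -0.18. Genes of glutathione synthesis and recycling (14 of 16 tested) ran from 0.75 for Slc3a2, a chain of the cystine transporter, to -0.59 for Ggt5, with 11 above 0 and a median of 0.23. Peroxidases and glutaredoxins (11 of 11) ran from 1.38 for Gpx2 to -0.29 for Gpx7, with 8 above 0 and a median of 0.07. Genes of conjugate export and breakdown (12 of 13) ran from 0.49 for Chac1 to -0.24 for Acy3, with 6 above 0 and a median of -0.01. Other NRF2 targets (14 of 15) ran from 2.50 for Aldh3a1, an aldehyde dehydrogenase, to -0.45 for Nqo1, with 12 above 0 and a median of 0.20, beside 0.03 over all genes. Aldh3a1 was at 2.34 and 0.72 CPM in the male and female NV mice and 3.62 and 13.4 in the male and female V mice. The NV levels came from few UMIs.

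Between spot classes a few genes of these lists were called. In club-rich spots these were Gpx2, an epithelial glutathione peroxidase, higher at 2.72 ± 0.39 (log2, SE, adjusted p = 0.0011 with edgeR), and Aldh3a1, higher at 2.44 ± 0.42 (adjusted p = 0.0054). Gpx2 was at 35.7 against 2.70 CPM in the NV male and 67.5 against 7.86 in the V female, while the club-rich spots of the NV female and the V male held 1 and 2 UMIs of Gpx2, too few to compare. The club-rich spots held only 10 and 1 UMIs of Aldh3a1 in the male and female NV mice and 2 and 269 in the male and female V mice. In the V male it was at 2.11 against 3.75 CPM. Aldh3a1 was at 1.42 without the V female, where the call was lost (adjusted p = 0.52 with edgeR). The other 3 lists had no called gene in club-rich spots, where they ran from 0.95 for Hpgds to -0.54 for Gstm6, from 0.38 for Gclc to -0.47 for Ggt1, and from 0.64 for Abcc3 to -0.41 for Chac2.

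In AT2-rich spots Gclc, the catalytic subunit of the rate-limiting enzyme of glutathione synthesis, was called higher at 0.63 ± 0.09 (log2, SE, adjusted p = 0.00073 with edgeR), and Gstt3 was called higher at 0.52. Gstm5, Gstz1, Ltc4s and Taldo1 were called lower there, at -0.70, -0.68, -0.61 and -0.46. In the V male, however, Gstm5 was at 17.8 against 13.6 CPM in AT2-rich against other spots and Gstz1 at 37.9 against 35.0. Ltc4s and Taldo1 were lower in that section too. The lists of peroxidases and of conjugate export had no call in AT2-rich spots, and ran from 0.17 for Glrx to -0.85 for Gpx2 and from 0.58 for Acy1 to -0.41 for Acy3. In AT1-rich spots Prdx6, a peroxiredoxin that uses glutathione and also acts in surfactant turnover, was the only listed gene called higher, at 0.73 ± 0.10 (adjusted p = 0.00016 with edgeR). Called lower there were Gstm5, Gstz1, Ltc4s and Ptges among the transferases, at -0.72, -0.59, -0.73 and -0.62, and Me1 and Idh1, which supply NADPH, at -1.01 and -0.61. Gpx8 and Glrx5 were called lower at -0.55 and -0.48, and Tkt at -0.85, while conjugate export ran from 0.30 for Abcc5 to -0.39 for Abcc4 with no call. In the V male Gstm5, Gstz1, Ltc4s, Me1, Idh1 and Glrx5 were higher in AT1-rich than in other spots, with Gstz1 at 42.3 against 34.5 CPM. Ptges, Gpx8 and Tkt were lower in that section too. In parenchyma spots alone Me1 was no longer called, at -0.22 (adjusted p = 0.14 with edgeR), nor was it without the V female, at -0.702 (adjusted p = 0.10 with edgeR).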

How the data were processed

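For each section the authors deposited raw UMI counts, with genes in rows and the spots under tissue in columns, and no normalization. By the study's methods reads were aligned with SpaceRanger to the 10x mm10 reference; the submitters' processing notes also name Seurat 4.0.3, whose normalized values are not used here. All 32285 genes and all deposited spots were kept. A barcode marks a place on a slide, and 233 barcodes were found in all 4 sections. Replicate 1 is the male and replicate 2 the female of each group, and nothing beyond that pairs the mice. With 2 mice a group, p-values of V against NV measure the spread between their sections, which also differ in sex and in the tissue they hold. Those of the class contrasts measure the spread, over the 4 sections, of the difference between spot classes.

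UMIs were summed per section and spot class, since spots of 1 section are not replicates, and tested by the quasi-likelihood method of edgeR 4.0.16 (R 4.3.3) after filterByExpr and TMM scaling, with Benjamini-Hochberg adjustment over all genes tested. The F statistic and fold change gave the standard errors. DESeq2 1.42.0 and limma 3.58.1 (log2 of the mean CPM over spots plus 1) were alternatives. Parenchyma spots had at least 50% of the pooled share of 6 parenchyma markers. Class contrasts had the section as a block and left out the markers that ranked the spots, so that a call says that a level differed along with those markers and no more. Levels in CPM are scaled to total UMIs, fitted fold changes by TMM.

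All 10 genes are named, with the 3 genes most like each, except 1 that is not reported here. Of each pathway list the called genes are named, or otherwise the highest and lowest log2 fold change. The genes, marker lists, pathway lists and spot classes were chosen with earlier results of these data known, so that no p is adjusted over a list alone. The values by range of club share, the female against male values and the comparison without club-rich and other-than-parenchyma spots were added after seeing the data. On simulated data with 200 changed genes, edgeR recovered 36.0% in the whole-section comparison (14347 genes), 79.5% in parenchyma (14115), 85.5% in alveolar (12993) and 29.0% in club-rich spots (9644). It recovered 95.0%, 96.0% and 95.0% in the club-rich (13394), AT2-rich (12797) and AT1-rich (12731) contrasts. The simulated sections shared a common profile, so they did not differ in tissue, and all genes had the same spread. The change set was larger than every fitted change of the 10 genes but that of Gsto1 between V and NV in club-rich spots. These shares hold only for the size of change set in those data, and recovery at other sizes was not tested. Gene positions are from GENCODE vM21 (GRCm38) and promoters from RefSeq (GRCm38.p6).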

Additional observations from a re-analysis of the deposited data

Results flagged for a closer look

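Gsta4 differed in the direction of V against NV between the sexes, a difference that was not tested with 1 mouse of each sex in each group. Its log2 ratio of V to NV over whole sections was -0.80 in males and 0.88 in females, and it was -0.62 and 0.52 in parenchyma spots, -0.53 and 0.35 in alveolar spots, and -1.57 and 1.56 in club-rich spots. Club markers stood at 312 CPM in the V male and at 13787 in the V female, and their part in these ratios was not tested.

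Gsto1 in club-rich spots had a log2 ratio of -0.42 in males and 3.48 in females, also not tested. The club-rich spots of the V male held 1032 CPM of club markers, against 71230 in the NV male. In alveolar spots Gsto1 was higher in V in both sexes.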

How the results depend on the processing

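Between V and NV, DESeq2 called 7 genes over whole sections, 9 in parenchyma and 6 in alveolar spots, and edgeR with no filter on low counts called 5 in parenchyma, 27 in alveolar and 59 in club-rich spots, where edgeR's main settings called 0. With the replicate block (the number of the titles, which marks the sex) it called 0 genes in each of the 4 comparisons, and the numbers share no animal. Leaving out 1 section gave 0 to 811 calls over whole sections, 0 to 1483 in parenchyma, 0 to 1223 in alveolar and 0 to 223 in club-rich spots, the highest of each when the V female was left out. These fits assume that a lone mouse varies like the other group. In them Mgst3 ran from -1.28 to 0.0048 over whole sections on the log2 scale, and Gsto1 in club-rich spots from -0.43 (V female left out) to 3.47 (V male left out).

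Against 250 calls in club-rich spots, 935 were made with no filter, 562 with the highest 5% of spots, 90 with the highest 20%, 164 without secretoglobins among the markers, 49 in parenchyma spots only and 141 to 509 with 1 section left out. For AT2-rich spots the 946 calls became 419 with DESeq2, 1451 with no filter, 178 in parenchyma spots and 273 to 1676 with 1 section left out. For AT1-rich spots the 1250 became 674 with DESeq2, 445 in parenchyma spots and 458 to 2204 with 1 section left out. With no filter edgeR called Gsto1 in alveolar and club-rich spots between V and NV (adjusted p = 0.026 and 9.28e-07). In club-rich spots the V male, at 90.6 CPM, lay below both NV sections, at 121 and 106, and only the V female, at 1184, lay above. That small p therefore does not stand for a higher level in both V mice. With all sections kept, adjusted p-values in club-rich spots ran from 7.92e-09 to 0.23 for Gsta4 and from 3.95e-15 to 0.89 for Gsto1, in AT2-rich spots from 6.96e-05 to 0.9998 for Mgst3, and in AT1-rich spots from 1.72e-06 to 0.23 for Gsta4 and from 1.26e-09 to 0.011 for Mgst1 over the alternatives. In parenchyma spots Mgst3 turned to 0.18 with club and 0.15 with AT1 markers. The cause was not tested. Of 199 fold changes of single genes under the settings that kept all sections, 174 kept their direction and their side of the threshold. Many of these were not called at first and stayed so, so the count says little of the calls. A call was lost in 9, gained in 14, and the direction reversed in 2. The lost calls included 3 of Gsta4 in club-rich and 3 of Mgst3 in AT2-rich spots. Over whole sections depth ranged from 6957392 to 34308556 UMIs, and Mgst2 had only 61 to 660.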

Other observations

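In the 10% of spots richest in B and plasma cell markers, the V female held Gsto1 at 861 CPM, and its other spots held it at 288 CPM. It was at 48.6 against 66.1 CPM in the NV male, at 72.9 against 67.2 CPM in the NV female and at 97.9 against 97.9 CPM in the V male, so that of the 4 sections the V female alone had a wide gap. Mgst1 was at 957 against 490.0 CPM in the NV female, with log2 ratios between -0.12 and -0.037 in the other sections. These are values with no test, and the part of other cells in those spots was not tested.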
